A study of Mus musculus with 2 samples.

Results

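Chemokine and chemokine receptor genes were followed in the sciatic nerve of 7-day-old mice (postnatal day 7). They were chosen by symbol (Ccl, Cxcl, Ccr or Cxcr followed by a digit, or Cx3c), and 57 of the 22093 usable gene symbols matched, 38 for ligands and 19 for receptors. The data were 1 RNA sequencing library from control nerve and 1 from Tsc1cKO nerve, mixed strain in both, made from total RNA. Tsc1 encodes a subunit of the complex that restrains the growth kinase complex mTORC1. The names under which the tables were deposited attach Dhhcre to both genotypes, with the Tsc1 alleles written as c and plus in control and as c and c in Tsc1cKO. They are read here as a Cre under desert hedgehog control, which acts in the Schwann cell lineage, so that the control would also carry Cre and a conditional copy of Tsc1. The number of animals behind a library was not given in the sources used here.

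Chemokines are small secreted proteins that guide the movement of cells, named by the spacing of their first cysteines as CC, CXC or CX3C. They act through receptors that couple to inhibitory G proteins, mainly on leukocytes and also on endothelial, glial and neural cells. In peripheral nerve they are best known for bringing monocytes into injured nerve, a task in which Ccl2 and its receptor Ccr2 take part, while Cx3cr1 marks resident macrophages.

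With 1 library a group there was no replicate check, and no test of genotype was possible. "Higher" and "lower" describe these libraries. Levels are FPKM, fragments scaled by transcript length and library size, given for control first and Tsc1cKO second. Differences are Tsc1cKO minus control in log2(FPKM + 1), which understates the change of low genes, and a difference of at least 1 is called 2-fold. Tsc1cKO values stood above control values across the table, by 0.24 on the log2 scale at the median of 7844 well-expressed genes, so each main difference is also given after removal of that shift, as a centred difference. Tsc1 itself was at 3.76 and 2.28 FPKM, a value that spans the whole gene and every cell of the nerve. Sox10, a marker of the Schwann cell lineage, was present at 212 and 246 FPKM.

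Of the 57 genes, 22 reached 1 FPKM in either library, 16 ligands and 6 receptors, and are called measured. Of these, 2 did so in Tsc1cKO only, Ccl8 among them, and were therefore bound to be higher there, so counts over the 22 carry no weight of their own. The ligand genes Cxcl14 and Ccl8 and the receptor gene Cxcr4 were at least 2-fold higher in Tsc1cKO, 3 of 22, where 5.03% of all 12409 measured genes were. None of the 22 was at least 2-fold lower as deposited, where 3.06% of all measured genes were. After centring the same 3 genes were at least 2-fold higher (2.86% of all measured genes), and Cxcl12 alone was at least 2-fold lower (4.65% of all measured genes). The other measured members lay within 2-fold on this scale, and 14 of the 22 differed by under 0.5. Their median difference was 0.10 as deposited and −0.06 centred, beside 0.20 and −0.01 for all measured genes. In whole nerve, fewer cells of a type and less RNA per cell cannot be told apart, and this holds for every value below.

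**Figure D1:**
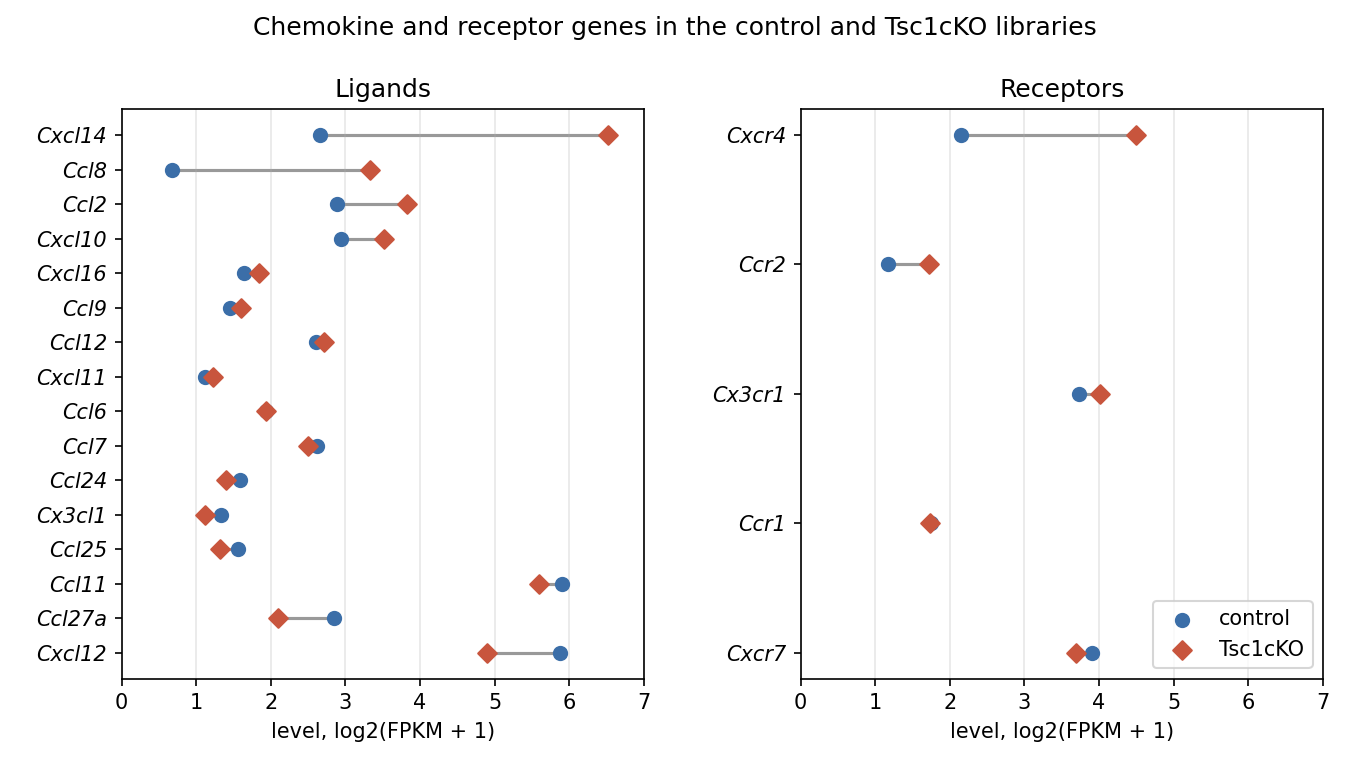
Levels of 16 ligand and 5 receptor genes that reached 1 FPKM in either library, in log2(FPKM + 1), with a blue circle for the control library and a red diamond for the Tsc1cKO library. Cxcl14, Ccl8 and Cxcr4 have the longest connecting lines with Tsc1cKO to the right, and Cxcl12 has the longest with control to the right. Values are as deposited, and the order of the 2 points turned for Ccl12 and Cxcl11 after centring.

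Cxcl14 encodes a CXC chemokine that many epithelia and fibroblasts make without stimulation and that draws monocytes and dendritic cells, and its signalling receptor is not settled. It was at 5.31 FPKM in control and 90.96 FPKM in Tsc1cKO, 17.1-fold higher, with a difference of 3.86 (3.63 centred). This was rank 15 from the top among the differences of all measured genes. Its level rank among the same genes moved from 7994 in control to 852 in Tsc1cKO. It lies on chromosome 13 from 56390006 to 56397912 (mm9).

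Ccl8 encodes a CC chemokine of the monocyte-attracting group, which in mouse acts on Ccr8. It was at 0.605 FPKM in control and 9.04 FPKM in Tsc1cKO, a difference of 2.65 (2.43 centred) and rank 43 from the top. Its control value stood below 1 FPKM, where few fragments decide a value, so the 14.9-fold ratio of the FPKM is less certain than that of Cxcl14. It lies on chromosome 11 from 81928687 to 81930301. Its receptor gene Ccr8 was listed at 0 in control and at 0.032 FPKM in Tsc1cKO.

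Cxcr4 encodes the signalling receptor for the chemokine Cxcl12 and guides the migration of progenitor cells and leukocytes. It was at 3.44 FPKM in control and 21.6 FPKM in Tsc1cKO, 6.28-fold higher, with a difference of 2.35 (2.12 centred) and rank 64 from the top. It lies on chromosome 1 from 130484776 to 130488876. Cxcr4 was thus the only one of the 6 measured receptor genes past 2-fold, in the values as deposited and after centring.

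Cxcl12, its ligand, is made by stromal, endothelial and perivascular cells and holds Cxcr4-bearing cells in place. It differed the other way, at 57.6 FPKM in control and 28.9 FPKM in Tsc1cKO, 1.99-fold lower, with a difference of −0.97 (−1.20 centred) and rank 407 from the bottom. It lies on chromosome 6 from 117118553 to 117131386. Cxcr7, an atypical receptor that binds and removes Cxcl12 without signalling through G proteins, was at 14.02 and 11.9 FPKM, a difference of −0.22 (−0.44 centred). Control therefore held 16.7 FPKM of Cxcl12 for each FPKM of Cxcr4, and Tsc1cKO 1.34. For Cxcl12 and Cxcr7 the ratio was 4.11 in control and 2.43 in Tsc1cKO. These ratios are taken within a library and do not depend on how the libraries are scaled to each other.

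The sequence before the start of these 4 genes is printed because they carry the largest differences in either direction. Each line holds the 250 bases upstream of the start, 5′ to 3′ on the gene's strand, from RefSeq on build GRCm38.p6, which is not the mm9 build of the measured values. Capitals mark the letters matched by any of 5 short motifs on either strand, the E-box CACGTG, the AP-1 motif TGANTCA, the NF-kappaB motif GGNNTTTCC, the STAT motif TTCNNNGAA and the TATA box TATAAA. The windows are chr13:56296552-56296801 on the minus strand for Cxcl14, chr1:128592300-128592549 on the minus strand for Cxcr4, chr11:82114935-82115184 on the plus strand for Ccl8 and chr6:117168285-117168534 on the plus strand for Cxcl12.
Cxcl14: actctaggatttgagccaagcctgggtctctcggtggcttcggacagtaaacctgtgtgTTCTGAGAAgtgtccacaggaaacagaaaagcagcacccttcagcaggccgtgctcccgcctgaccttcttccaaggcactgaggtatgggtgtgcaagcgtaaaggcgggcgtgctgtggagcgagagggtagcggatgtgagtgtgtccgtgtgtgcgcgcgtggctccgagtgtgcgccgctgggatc
Cxcr4: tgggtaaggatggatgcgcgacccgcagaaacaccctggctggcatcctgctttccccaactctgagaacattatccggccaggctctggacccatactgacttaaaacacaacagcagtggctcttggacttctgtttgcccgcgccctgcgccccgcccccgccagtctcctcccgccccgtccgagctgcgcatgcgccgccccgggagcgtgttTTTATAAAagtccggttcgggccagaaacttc
Ccl8: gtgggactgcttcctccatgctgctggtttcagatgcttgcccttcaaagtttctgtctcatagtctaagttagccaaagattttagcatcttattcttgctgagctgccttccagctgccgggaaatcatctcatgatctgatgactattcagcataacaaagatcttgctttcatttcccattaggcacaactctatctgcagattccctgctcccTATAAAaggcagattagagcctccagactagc
Cxcl12: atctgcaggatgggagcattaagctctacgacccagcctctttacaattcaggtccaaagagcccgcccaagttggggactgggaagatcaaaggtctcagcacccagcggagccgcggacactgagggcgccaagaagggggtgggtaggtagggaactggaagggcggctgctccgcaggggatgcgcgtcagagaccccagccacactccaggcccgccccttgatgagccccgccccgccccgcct

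The 4 windows shared no single motif. TATAAA began 30 bases before the start in Cxcr4 and 32 bases before it in Ccl8, and in Cxcr4 a match on the other strand overlaps it in the same 8 letters. TATAAA stood in 12.4% of all 32851 promoter windows of this length and in 12 of 47 windows of 40 member genes. Cxcl14 held TTCNNNGAA 191 bases before the start, a motif found in 7.02% of all windows and 4 of 47 member windows. The Cxcl12 window held none of the 5 motifs. None of the 4 windows held CACGTG or TGANTCA, present in 6.02% and 6.75% of all windows and in 1 and 6 of 47 member windows. GGNNTTTCC was also in none of the 4, though 4.93% of all windows and 8 of 47 member windows had it, those of Ccl20, Cxcl3, Cxcl1, Cxcl2, Cxcl9, Cxcl10, Ccr3 and Ccl9. Of these 8 genes, Cxcl10 and Ccl9 were measured. A match is a run of letters and not a shown binding site.

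The make-up of the ligand transcripts differed with these genes. Summed over all 38 ligand genes the level as deposited was 169 FPKM in control and 229 FPKM in Tsc1cKO. Cxcl14 alone made 5.31 and 90.96 FPKM of these sums, so they do not describe the ligand genes in general. Control was led by Ccl11 with 34.9% of that sum and Cxcl12 with 34.2%, and Cxcl14 held 3.15%. Tsc1cKO was led by Cxcl14 with 39.7%, followed by Ccl11 with 20.6% and Cxcl12 with 12.6%. Over the 19 receptor genes the sum as deposited was 35.6 FPKM and 55.8 FPKM, of which Cxcr4 made 3.44 and 21.6 FPKM. There Cxcr7 led in control with 39.4% and Cxcr4 held 9.66%, while in Tsc1cKO Cxcr4 led with 38.7% and Cxcr7 held 21.3%. Cx3cr1 held 34.4% in control and 26.98% in Tsc1cKO. These shares compare genes within a library on a scale per length.

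**Figure D2:**
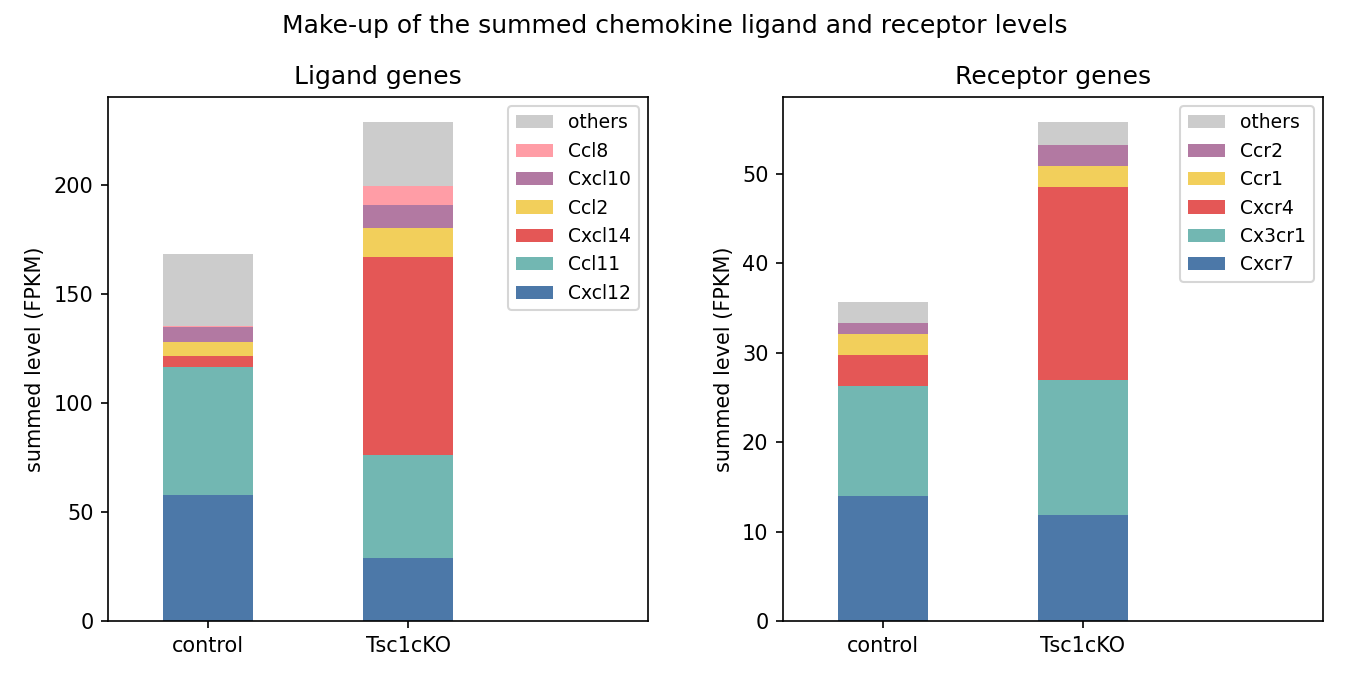
Summed FPKM of the 38 ligand genes (left) and 19 receptor genes (right) in the control and Tsc1cKO libraries, 1 bar a library, with the leading genes as coloured segments and the rest in grey. The Cxcl14 segment measures 5.31 FPKM in control and 90.96 FPKM in Tsc1cKO, and the Cxcr4 segment 3.44 and 21.6 FPKM.

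The monocyte-attracting CC ligands Ccl2, Ccl7, Ccl12 and Ccl8 sit in a cluster on chromosome 11, from 81849079 to 81993314 (mm9). The cluster also holds Ccl11 and Ccl1, in the order Ccl2, Ccl7, Ccl11, Ccl12, Ccl8, Ccl1. Ccl2, the main attractant of monocytes that carry Ccr2, was at 6.37 and 13.1 FPKM, 2.06-fold higher in Tsc1cKO, with a difference of 0.94 (0.72 centred). It thus stayed short of 2-fold on the log2(FPKM + 1) scale. Ccl7, which shares Ccr2, was at 5.13 and 4.67 FPKM, a difference of −0.11. Ccl12, a mouse ligand of the same receptor, had 5.07 and 5.53 FPKM, with a difference of 0.10 and, centred, −0.09. Ccl11, or eotaxin, which draws eosinophils through Ccr3, was the highest of the cluster at 58.8 and 47.3 FPKM, with a difference of −0.31 (−0.54 centred). Ccl1 was listed at 0 in control and at 0.108 FPKM in Tsc1cKO. Ccl8 was therefore the one gene of this cluster past 2-fold. Its neighbour Ccl12 ends 11785 bases before it and differed by 0.10 where Ccl8 differed by 2.65.

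**Figure D3:**
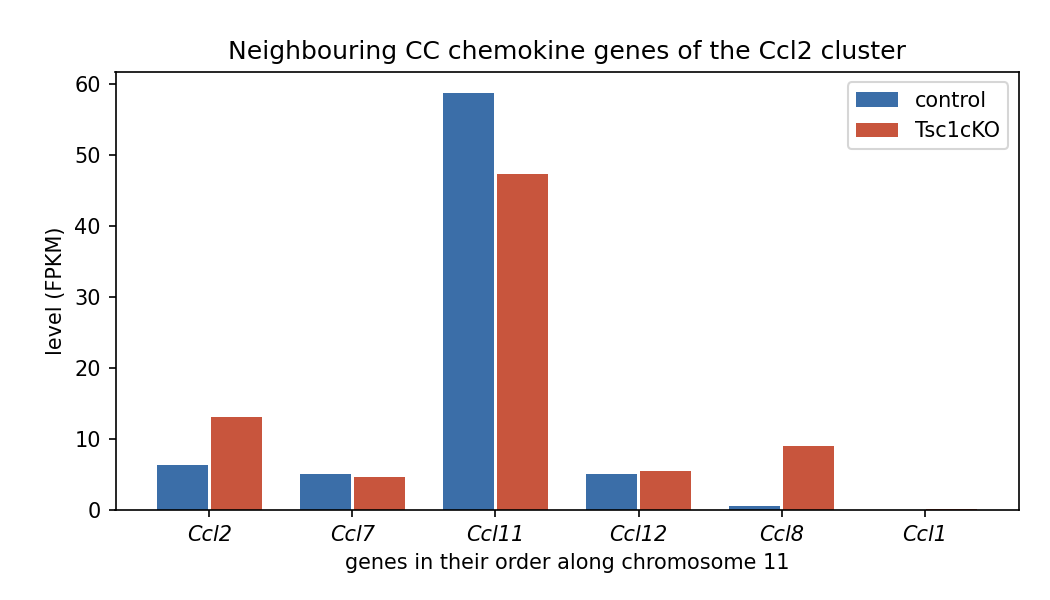
Levels in FPKM of the 6 CC chemokine genes of the Ccl2 cluster, in their order along chromosome 11, with 1 blue bar for the control library and 1 red bar for the Tsc1cKO library. Ccl11 is the tallest pair at 58.8 and 47.3 FPKM, Ccl2 and Ccl8 stand higher in Tsc1cKO, and Ccl1 is at or near 0. Ccl7 stands slightly lower in Tsc1cKO, and the order of the Ccl12 bars turned after centring.

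The second CC group on chromosome 11, from 83339281 to 83478185, held Ccl5, Ccl9, Ccl6, Ccl3 and Ccl4. Ccl6 and Ccl9, ligands of Ccr1 that myeloid cells make in mouse, were at 2.83 and 2.81 FPKM and at 1.73 and 2.04 FPKM. The span of Ccl6 overlaps that of E230016K23Rik, which makes its value uncertain. Ccl3, Ccl4 and Ccl5, inflammatory attractants of monocytes and T cells, stayed below 1 FPKM in both libraries. Ccl5 was at 0.871 and 0.447 FPKM, Ccl3 at 0.573 and 0.433 FPKM and Ccl4 at 0.386 and 0.204 FPKM. All 3 had the lower value in Tsc1cKO, at levels where few fragments decide a value. Ccl24, a relative of Ccl11 on chromosome 5, was at 2.01 and 1.64 FPKM.

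The interferon-induced CXC ligands act on Cxcr3, the receptor of activated T cells. Cxcl10 was at 6.69 and 10.5 FPKM, a difference of 0.57 (0.36 centred). Cxcl11 had 1.17 and 1.33 FPKM, with a difference of 0.10 and, centred, −0.03. Cxcl9 was at 0.335 and 0.187 FPKM and Cxcr3 at 0.331 and 0.339 FPKM. The spans of Cxcl10 and Cxcl11 lie inside that of Art3, and no use of strand was stated, so both values are uncertain. The neutrophil-attracting ligands Cxcl1, Cxcl2, Cxcl3 and Cxcl5 summed to 0.161 FPKM in control and 0.280 FPKM in Tsc1cKO. Their receptor gene Cxcr2 was at 0.475 and 0.323 FPKM, and Cxcr1 was listed at 0 in both libraries.

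Among the remaining ligands, Ccl27a, which in skin attracts T cells through Ccr10, was at 6.19 and 3.27 FPKM, a difference of −0.75 (−0.93 centred). Its span touches that of Il11ra1, which makes the value uncertain. Ccr10 was at 0.627 and 0.435 FPKM. Ccl25, known from thymus and gut, was at 1.95 and 1.5004 FPKM, and its receptor gene Ccr9 at 0.0231 and 0.00466 FPKM. The membrane-bound ligands Cx3cl1 and Cxcl16 were at 1.52 and 1.17 FPKM and at 2.11 and 2.59 FPKM, the latter uncertain through its overlap with Zmynd15. No difference in this group reached 2-fold, and that of Ccl27a was the nearest.

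The receptor genes other than Cxcr4 differed less. Cx3cr1, the fractalkine receptor of macrophages, was at 12.3 and 15.1 FPKM, a difference of 0.28 (0.06 centred). Ccr1 was at 2.35 and 2.32 FPKM. Ccr2, the receptor for Ccl2, was at 1.26 and 2.29 FPKM, a difference of 0.55 (0.39 centred). Ccr1 and Ccr2 lie near Ccr9, Cxcr6, Ccr1l1 and Ccr3 on chromosome 9. Ccr3, the receptor for Ccl11, was at 0.0138 FPKM in control and listed at 0 in Tsc1cKO, beside the 58.8 and 47.3 FPKM of that ligand.

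The other 35 genes did not reach 1 FPKM. Of these, 25 had a value above 0 in at least 1 library, and the highest was the 0.871 FPKM of Ccl5 in control. Ccl28, at 0.861 and 0.822 FPKM, was also just below the limit, and Cx3cl1 and Cxcl11 were just above it. The 10 genes listed at 0 in both libraries were Ccl19, Ccl20, Ccl21a, Ccl21b, Ccl21c, Ccl26, Ccl27b, Cxcl17, Cxcl3 and Cxcr1. Ccl19, Ccl21a, Ccl21b, Ccl21c and Ccl27b stand on several near-identical entries, so their zeros are uncertain.

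**Figure D4:**
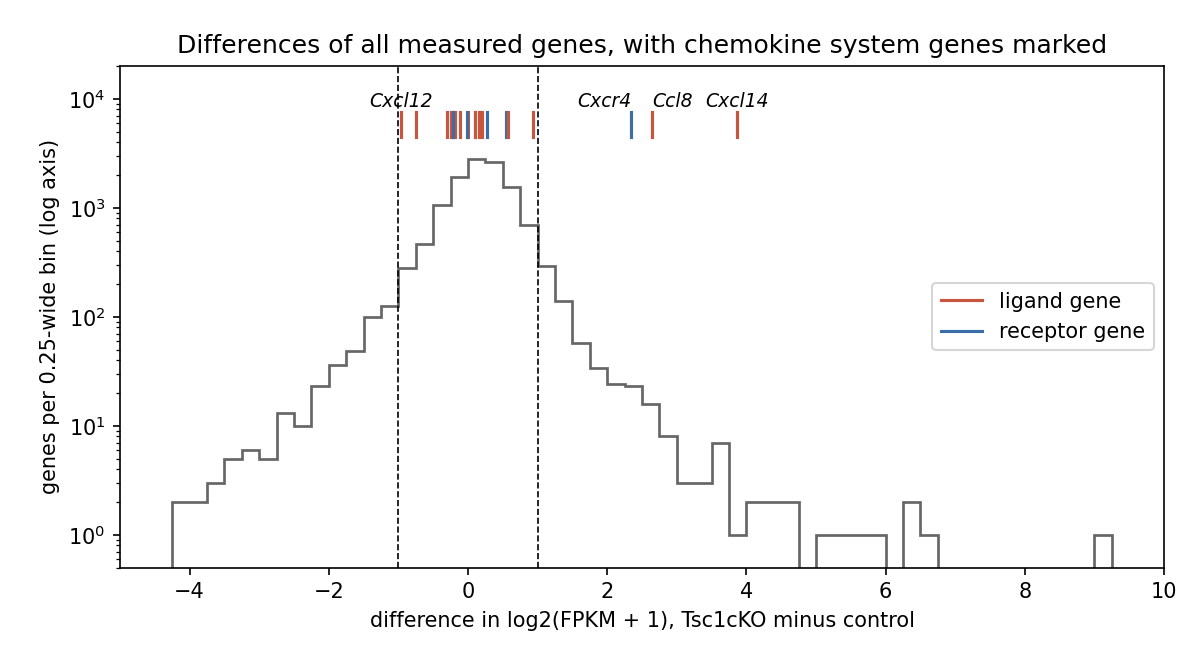
Number of genes (log axis) in each bin of the difference in log2(FPKM + 1), Tsc1cKO minus control, for all 12409 measured genes as deposited, with ticks above for 21 chemokine system genes, red for ligands and blue for receptors. Dashed lines mark 2-fold. Cxcr4, Ccl8 and Cxcl14 stand beyond the right line at 2.35, 2.65 and 3.86, and Cxcl12 at −0.97 stands just inside the left line, which it passed after centring.

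Chemokines and chemokine-binding proteins whose names do not match the pattern were read from a list of 12 genes, 6 of them measured. Darc, which encodes an atypical receptor of venules and red cells that binds many chemokines, was at 19.9 and 7.62 FPKM, a difference of −1.28 (−1.48 centred). Mif, a cytokine that also binds Cxcr4 and Cxcr2, was at 133 and 332 FPKM, a difference of 1.31 (1.07 centred). Pf4, a CXC chemokine of platelets also made by macrophages, was at 63.8 and 52.9 FPKM. Rarres2, which encodes the attractant chemerin and overlaps Lrrc61, was at 188 and 224 FPKM.

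Of 29 genes of signalling below the receptors, 22 were measured and none was past 2-fold as deposited, with a median of 0.23 (0.01 centred). Rgs16, a brake on G protein signalling, was at 2.64 and 6.03 FPKM, a difference of 0.95. Gnai1, one of the inhibitory G protein subunits, had 58.2 and 32.8 FPKM, a difference of −0.81, and passed 2-fold when centred, at −1.04. Of 13 genes for proteases and matrix partners of chemokines, 11 were measured, with a median of 0.20 (−0.02 centred). Adam10, which sheds Cx3cl1 and Cxcl16 from the membrane, was at 156 and 64.4 FPKM, a difference of −1.26. Gpc1, a heparan sulfate proteoglycan that overlaps Mir149, was at 33.6 and 85.8 FPKM, a difference of 1.33. These were the only 2 of the 11 past 2-fold, 1 in each direction. Counts past 2-fold in these lists and those below stand beside 5.03% of all measured genes higher and 3.06% lower as deposited. When centred, the shares were 2.86% and 4.65%. In lists this short, a count of 0 or 1 carries no weight.

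Transcripts of signals that induce chemokines were read as well, though they do not measure how active those signals are. Their part in the values of Cxcl14, Ccl8 and Cxcr4 was not tested. Of 27 NF-kappaB genes and their upstream signals, 23 were measured and 1 was past 2-fold as deposited, with a median of 0.19 (−0.02 centred). This was Tlr4, the receptor for bacterial lipopolysaccharide, at 1.40 and 4.57 FPKM with a difference of 1.22. Tnfaip3, an NF-kappaB target that feeds back on it, was at 3.87 and 1.59 FPKM, a difference of −0.91 (−1.05 centred). Of 23 interferon response genes, 17 were measured and none was past 2-fold, with a median of 0.38 (0.19 centred). Of the 17, 15 had the higher value in Tsc1cKO as deposited and 11 when centred, beside 67.0% and 49.4% of all measured genes. The largest difference there was 0.71, for the receptor gene Ifnar2 at 27.03 and 44.8 FPKM.

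Markers of the cells that make or bear chemokines differed by less than the 3 leading genes, apart from the melanocyte markers Tyrp1 and Pmel. Those 3 genes were picked for their large differences, so this comparison carries no weight. All 10 macrophage markers were measured and none was past 2-fold. Their summed level was 137 FPKM in control and 178 FPKM in Tsc1cKO, and their differences ran from −0.25 to 0.89 with a median of 0.13 (−0.04 centred). Of the 10, 7 had the higher value and 3 the lower value in Tsc1cKO as deposited, and 4 the higher value when centred. Aif1, at 6.15 and 12.2 FPKM, and C1qa, at 59.6 and 92.0 FPKM, had the largest differences and do not stand for the list. Of 6 mast cell markers, 5 were measured, all higher, with a median of 0.72 (0.50 centred). The list summed to 32.2 and 58.1 FPKM. Counts of markers stand beside 67.0% of all measured genes with the higher value in Tsc1cKO as deposited, and 49.4% when centred. No T cell marker reached 1 FPKM, with sums of 0.544 and 1.12 FPKM over 6 genes. The 4 B cell markers summed to 1.57 and 2.04 FPKM and the 5 dendritic cell markers to 6.41 and 6.31 FPKM. Of 7 usable neutrophil markers 5 were measured, 4 of them lower, with sums of 55.4 and 49.9 FPKM.

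All 6 fibroblast markers had lower values in Tsc1cKO, from 10094 to 6559.9 FPKM in sum, with a median of −0.54 (−0.77 centred). All 8 endothelial markers were lower as well, from 138 to 109.6 FPKM, with a median of −0.27 (−0.48 centred). The 7 pericyte and smooth muscle markers summed to 188 and 156 FPKM and the 4 lymphatic endothelial markers to 27.8 and 23.4 FPKM. As deposited, the members of these last lists did not all differ one way. Acta2, Myh11 and Pdgfrb, 3 of 7, and Lyve1, 1 of 2 measured, had the higher value in Tsc1cKO. After centring, Pdgfrb (−0.16) and Lyve1 (−0.11) had the lower value, while Acta2 and Myh11 stayed higher. No measured lymphatic endothelial marker was then higher. The fibroblast and endothelial markers differed in the direction of Cxcl12, Ccl11 and Darc, and their part in those values was not tested. Of 6 Schwann cell markers, 5 were usable and 4 were higher, 3 when centred, from 1017 to 1466 FPKM in sum, and 1, Cdh19, was past 2-fold as deposited, at 1.23, and none when centred. Skeletal muscle markers were higher in 4 of 4 measured, from 203 to 428 FPKM over 5 genes. Of these, 3 were past 2-fold as deposited, Ckm at 1.04, Myh8 at 1.15 and Tnnt3, whose entry overlaps Gm14492, at 1.28, and 1 when centred. The 4 adipocyte markers summed to 227 and 302 FPKM, with a median of 0.22 (0.02 centred), and 2 of the 4 were higher when centred. Melanocyte markers summed to 10.4 and 1161 FPKM through Tyrp1, Dct and Pmel, whose entry overlaps Dgka. Tyr was at 0.248 and 0.168 FPKM, and Mlana and Slc45a2 were listed at 0 in both. The part of any of these lists in the values of Cxcl14, Ccl8 and Cxcr4 was not tested.

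**Figure D5:**
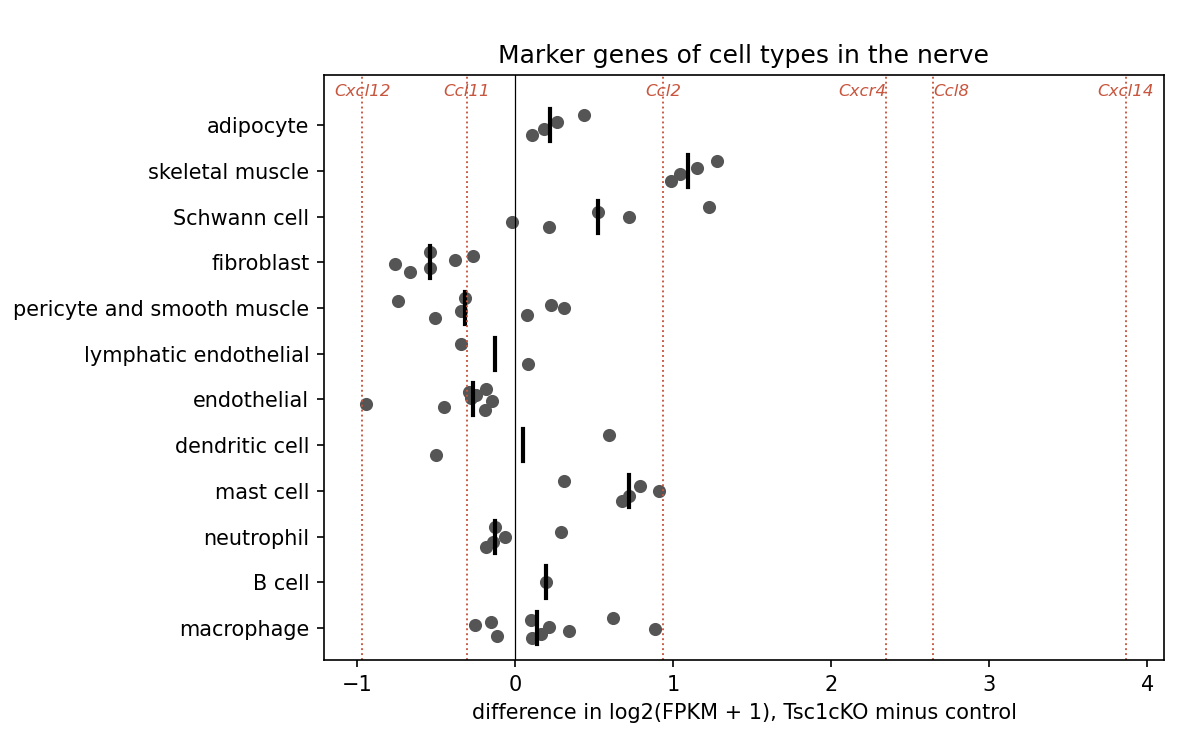
Differences in log2(FPKM + 1), Tsc1cKO minus control, as deposited, of the measured marker genes of 12 cell types, 1 grey point a gene, with a black bar at each list's median. Dotted red lines mark 6 chemokine system genes. Fibroblast and endothelial markers lie on the side of Cxcl12 and Ccl11, with medians of −0.54 and −0.27. No marker shown reaches the 2.35 of Cxcr4, a gene picked for its large difference. Melanocyte markers, with differences up to 9.20, and T cell markers, none of which was measured, are not drawn.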

How the data were processed

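Per the labels' protocols, nerves were flash frozen, RNA was taken up in Trizol and sequencing libraries came from the TruSeq RNA kit of Illumina. The authors deposited FPKM values with a status per gene entry, 1 table a library, per the file headers. Per the submitters' processing notes the tools were CASAVA, TopHat and Cufflinks, with no version, and the build was mm9. The annotation and any use of strand were not given in the sources used here. Sequencing depth was unknown, since the lowest values formed no sharp steps (the fullest bin of FPKM times length held 8.85% and 6.09% of low genes with 1 transcript), and no interval could be given.

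The 22532 entries of both tables were joined by symbol and position, since their row order differed, and entries of a symbol were summed. Symbols with an entry not marked OK, 3 in number, were left out, none of them a chemokine gene. Deposited starts count from 0 (7619 of 19417 spans then equal the RefSeq gene length, against 506 otherwise), and 1 was added. The pseudocount was 1, the minimum 1 FPKM in either library and the call a difference of at least 1. Centring divided Tsc1cKO by 1.18, the median ratio of genes with at least 5 FPKM in both. A simulation of the count rule covered only centred differences of genes with at least 5 FPKM in control, with changes planted beyond the call. It does not bear on lower genes, on differences as deposited or on variation between animals. Genes named were members with at least 5 FPKM or past 2-fold, their receptors or neighbours, and the leading genes of 19 lists (189 entries, 2 not usable). Other members, and markers at or near 0, were named to account for them. Some genes that meet these rules are not reported here. The members and lists were chosen with earlier results of these data known. Promoter sequences were found in RefSeq (GRCm38.p6) for 40 of 57 members. Python 3.11.15, pandas 2.3.3 and numpy 2.4.6 were used.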

Additional observations from a re-analysis of the deposited data

How the results depend on the processing

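Cxcl14, Ccl8 and Cxcr4 passed 2-fold in the same direction with either other pseudocount and either scaling, the settings that alter their differences. With a pseudocount of 0.1, 5 members were higher, Ccl2 (1.03) among those added, beside 7.48% of all measured genes higher and 4.4% lower. At 1.5-fold, 4 of the 22 measured members were higher, with Ccl2 added, and 2 lower, Cxcl12 and Ccl27a. Of all measured genes, 17.8% (2211) were higher and 7.53% (934) lower at that threshold. After median ratio or upper quartile scaling 1 member, Cxcl12, was lower (−1.20 and −1.16), and the small differences of Ccl12 and Cxcl11 changed sign. Over all measured genes, 624 were higher and 380 lower as deposited, 355 and 577 after median ratio scaling, 379 and 543 after upper quartile scaling, and 283 and 221 with a pseudocount of 5. The higher share of calls was 62.2% as deposited and 38.1% after median ratio scaling (41.1% after upper quartile scaling). These counts moved because the settings change the scale, the centre or the threshold itself. The filters on FPKM, the use of a symbol's highest entry and the keeping of failed entries left the 3 higher and 0 lower members as they were. These settings could not have removed the 3 genes, so this carries no weight. Each of the 3 has 1 entry, no chemokine entry failed, and Ccl8 passed the filters through its Tsc1cKO value. A minimum of 1 FPKM in both libraries, which was not tried, would leave out Ccl8, at 0.605 FPKM in control. No paired analysis was possible because each group had 1 library. Unknown depth limits most the genes below 1 FPKM, Ccl8 in control among them.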
